A study of Mus musculus with 8 samples.

Results

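Imprinted growth genes were followed in microvessels of the mouse forebrain at 3 ages: postnatal days 5 (P5) and 10 (P10), and adulthood. The list held 10 genes, Igf2, H19, Dlk1, Meg3, Mest, Plagl1, Cdkn1c, Peg3, Grb10 and Ndn, and all array probes whose accession belonged to a listed gene in the RefSeq table were taken. This gave 18 probes of 9 genes, out of 39429 probes and 20832 gene symbols; H19 had no matched accession here. Igf2, Cdkn1c, Grb10 and Ndn had 1 probe each, Dlk1 and Peg3 had 2, Meg3 and Mest had 3, and Plagl1 had 4. All 18 probes passed the filter on dim probes, which asked that all channels of at least 1 age be well above background, and were tested.

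Microvessels came from whole forebrain by homogenisation, a density step and a filter that let through particles under 70 µm, and 100 ng of RNA was labelled per channel, with Cy5 or with Cy3. Each of 8 dual-colour arrays held RNA of 2 ages, and each of the 2 replicates filled 4 arrays on 1 slide, which were P5 with adult, P10 with adult, the latter again with the dyes exchanged, and P5 with P10. The groups differ in age alone as far as the labels say. Strain, sex, the age of the adults and the number of animals behind a replicate are not given in the labels, so the p-values speak only of the spread among these samples, part or all of which may be technical. P5 RNA carried Cy5 on every array that held it, and the dye term of the fit rests on the exchanged P10 and adult pair.

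An imprinted gene is expressed from only the maternal or only the paternal copy in many tissues, because DNA methylation laid down in the egg or the sperm marks a control region nearby. Many imprinted genes act on growth before and after birth. Igf2, a secreted growth factor mostly expressed from the paternal copy, promotes it. Cdkn1c and Grb10, mostly expressed from the maternal copy, restrain it. Several of the listed genes are known to be abundant in fetal organs and to be turned down as body growth slows. The arrays read the total RNA of a gene and do not tell the parental copies apart.

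The promoter windows of Dlk1, Meg3, Mest and Plagl1 are shown because probes of these 4 genes had the highest ratios to adult. Each is a window of 300 bases around a RefSeq transcription start (GRCm38.p6), most of it upstream, written 5′ to 3′ on the gene's strand, with the CG dinucleotides, where DNA methylation is placed, in capitals.
Dlk1, chr12:109452573-109452872, plus strand: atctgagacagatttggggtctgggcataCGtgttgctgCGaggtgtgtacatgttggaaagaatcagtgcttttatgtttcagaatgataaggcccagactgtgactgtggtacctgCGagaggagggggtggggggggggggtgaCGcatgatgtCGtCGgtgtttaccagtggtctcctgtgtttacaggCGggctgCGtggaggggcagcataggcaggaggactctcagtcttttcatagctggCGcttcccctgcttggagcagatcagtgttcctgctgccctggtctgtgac
Meg3, chr12:109540746-109541045, plus strand: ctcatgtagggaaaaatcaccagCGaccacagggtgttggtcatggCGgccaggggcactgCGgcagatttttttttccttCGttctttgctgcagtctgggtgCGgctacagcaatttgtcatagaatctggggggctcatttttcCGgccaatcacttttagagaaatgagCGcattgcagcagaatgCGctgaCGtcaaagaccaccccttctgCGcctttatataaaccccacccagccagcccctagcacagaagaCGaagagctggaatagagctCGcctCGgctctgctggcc
Mest, upstream start, chr6:30733256-30733555, plus strand: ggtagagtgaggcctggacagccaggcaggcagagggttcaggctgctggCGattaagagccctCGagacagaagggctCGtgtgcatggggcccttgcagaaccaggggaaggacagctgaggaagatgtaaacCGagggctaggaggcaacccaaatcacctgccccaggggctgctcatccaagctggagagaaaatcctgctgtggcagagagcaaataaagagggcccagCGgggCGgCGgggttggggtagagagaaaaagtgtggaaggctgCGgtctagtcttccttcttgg
Mest, downstream start, chr6:30737800-30738099, plus strand: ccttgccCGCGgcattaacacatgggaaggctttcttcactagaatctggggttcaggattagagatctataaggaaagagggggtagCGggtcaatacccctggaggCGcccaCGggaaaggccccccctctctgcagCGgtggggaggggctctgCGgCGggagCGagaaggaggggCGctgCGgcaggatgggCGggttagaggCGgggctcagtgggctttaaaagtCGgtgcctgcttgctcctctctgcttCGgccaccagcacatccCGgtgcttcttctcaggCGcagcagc
Plagl1, chr10:13090582-13090881, plus strand: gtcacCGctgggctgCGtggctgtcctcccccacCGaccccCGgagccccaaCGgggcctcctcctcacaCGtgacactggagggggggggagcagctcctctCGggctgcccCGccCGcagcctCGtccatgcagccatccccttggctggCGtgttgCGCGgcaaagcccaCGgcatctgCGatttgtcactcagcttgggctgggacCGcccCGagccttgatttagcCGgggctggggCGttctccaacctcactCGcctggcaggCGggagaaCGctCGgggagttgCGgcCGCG
Dlk1 and Meg3 lie on the same strand of chromosome 12, in an imprinted domain where Dlk1 is read from the paternal and Meg3 from the maternal copy. Over all 32851 RefSeq promoter windows of this length the median was 7 CG dinucleotides. The window of Plagl1 held 26, more than 83.1% of all windows, that of the downstream Mest start 17, that of the Meg3 start shown 13, that of Dlk1 9 and that of the upstream Mest start 8. The TATA box letters TATAAA, searched on both strands, occurred 2 times in this Meg3 window, 1 time per strand at overlapping positions. They were in no other window shown here and in 13.6% of all windows. The GC box letters GGGCGG, which contain a CG, occurred 2 times in the Plagl1 window and 1 time in each Mest window, against 35.7% of all windows with a match. The letters GGGGCCCC, a sequence that the PLAGL1 protein is known to bind, were in none of these 5 windows and in 1.08% of all windows; among the 15 windows found for 8 of the 10 genes, that of Peg3 held them. A further Meg3 start, downstream and not shown, had a window with 1 CG dinucleotide and no TATAAA. The arrays do not show which start was used, and a match of letters is a description of the window.

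Per channel, 65.2% to 73.3% of 43020 non-control spots were well above background, and no spot of a listed gene was saturated. Of the 18 probes, 17 were well above background in all 16 channels; the exception was Dlk1 probe 2, which was so in 3 of 6 adult channels. Over all tested probes, which do not count as independent replicates, the log2 ratios of the 2 replicates correlated at r = 0.900 for P5 against adult, 0.814 for P10 against adult and 0.796 for P5 against P10. The labelled cell type was present: all 14 endothelial marker genes were well above background in all 16 channels. The log2 of their summed linear intensities was 16.5 and 16.1 in the 2 replicates at P5, and 17.7 and 17.5 at P10. In adults it was 19.1 and 18.8. Such a sum is weighted toward the brightest genes.

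With loess normalization, all calls among the listed genes were higher at the younger age. In P5 against adult, 11 of 18 probes (61.1%) were higher and 0 lower by limma at a Benjamini-Hochberg adjusted p below 0.05, where 28% of all 27125 tested probes were higher, 24% lower and 52% called in all. At an unadjusted p below 0.05 the counts were 15 higher and 1 lower, the latter being Cdkn1c. These 11 probes belonged to 6 of the 9 genes, Igf2, Dlk1, Meg3, Mest, Plagl1 and Ndn. The median log2 ratio was 1.54 over the 18 probes and 0.06 over all probes. Probes of 1 gene share their target and are not independent; with 1 probe per gene the median was 0.93 and the count 6 of 9, and median centring turned these into 0.46, with 4 higher and 1 lower. In P10 against adult, 6 of 18 probes (33.3%) were higher and 0 lower (9 and 0 unadjusted), against 8.13% higher, 9.04% lower and 17.2% called among all probes, and they came from Mest, Plagl1 and Ndn. The medians there were 0.67 and 0.00. In P5 against P10, 6 of 18 (33.3%) were higher and 0 lower (6 and 0 unadjusted), against 21.4% higher, 18.7% lower and 40.1% called among all probes, from Meg3, Mest and Peg3, with medians of 0.35 and 0.03. The 3 comparisons share samples.

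The way the arrays are scaled bears on these counts. Centring each array on its median in place of loess moved the median of all probes by -0.15 in P5 against adult, 0.02 in P10 against adult and -0.15 in P5 against P10, and the share of higher among called probes in P5 against P10 from 53.4% to 39.2%. With it the counts of listed probes were 10 higher and 1 lower in P5 against adult, the latter being Cdkn1c, and 4 higher and 4 lower in P5 against P10, the 4 lower being Igf2, Plagl1 probes 1 and 2, and Cdkn1c.

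**Figure D1:**
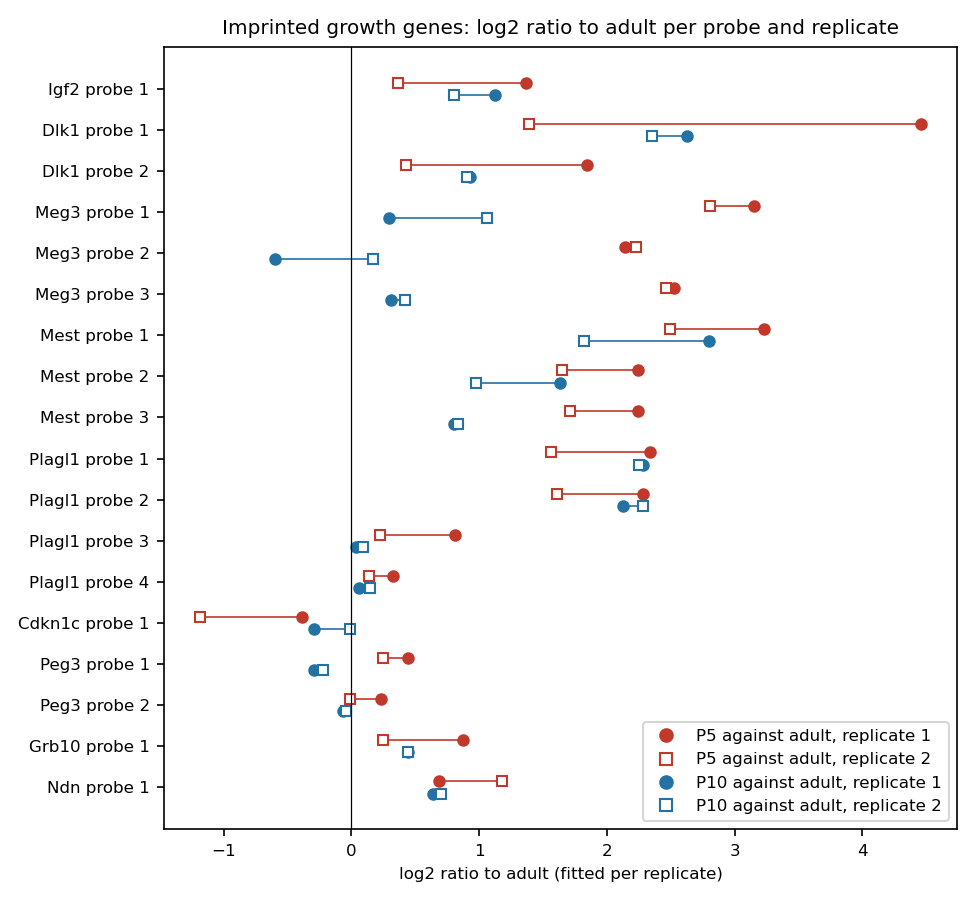
Log2 ratio to adult (horizontal axis, fitted per replicate) of each of the 18 probes; red marks P5 against adult, blue P10 against adult, filled circles replicate 1 and open squares replicate 2, joined by a line. Meg3 lies far right at P5 and between -0.60 and 1.06 at P10, and Mest and Plagl1 probes 1 and 2 lie right of 0 at both ages. Dlk1 probe 1 has the widest gap between replicates (4.46 and 1.39 at P5), and Cdkn1c lies left of 0 at P5.

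Igf2 encodes the growth factor that binds the IGF1 receptor and, in the brain after birth, is known mainly from choroid plexus, meninges and vessels. Its log2 ratio on the P5/adult arrays was 0.89 in replicate 1 and 0.27 in replicate 2. On the P10/adult arrays it was 1.06 and 0.80, and on the dye-exchanged adult/P10 arrays -1.46 and -0.87. The direct P5/P10 arrays gave 0.32 and -0.41. Igf2 was therefore higher than in adults on every array that held adult RNA, whereas its P5 to P10 ratio had opposite signs in the 2 replicates. The fit gave 0.86 ± 0.25 (SE, n = 2; 1.82-fold; adjusted p = 0.0359) for P5 against adult. It gave 0.96 ± 0.25 (1.12 and 0.80 in the replicates; adjusted p = 0.0581) for P10 against adult and -0.10 ± 0.25 (adjusted p = 0.764) for P5 against P10. The P5 call was lost with Feature Extraction's processed signals (adjusted p = 0.065), with median centring (0.258), with no filter on dim probes (0.0606), without the 2 arrays that carry spots of faulty background (0.121) and with no replicate block (0.301). At P10 it passed under median centring (0.0491), with no dye term (0.0363) and without those 2 arrays (0.049).

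Grb10, an adaptor protein that dampens signalling from the insulin and IGF1 receptors, did not pass in any comparison, though with no dye term it did at P5 (0.51, adjusted p = 0.036). Its fitted log2 ratio was 0.56 ± 0.19 at P5 (0.87 and 0.24 in the replicates; adjusted p = 0.0557) and 0.45 ± 0.19 at P10 (0.45 and 0.44; adjusted p = 0.181). P5 against P10 was 0.11 ± 0.19 (0.43 and -0.20; adjusted p = 0.645), a sign that turned under median centring (-0.20) and with processed signals (-0.04). Grb10 is expressed from the maternal copy in most tissues and from the paternal copy in neurons.

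Dlk1, a membrane protein related to the Notch ligands that is found on many immature cells, had the widest spread of the listed genes. On the P5/adult arrays its probe 1 gave 4.41 in replicate 1 and 1.43 in replicate 2. The P10/adult arrays gave 2.85 and 2.56, and the exchanged adult/P10 arrays -2.59 and -2.25. On the P5/P10 arrays the values were 2.14 and -0.70. P5 lay above adult in both replicates, but above P10 in replicate 1 and below it in replicate 2. The fitted ratio was 2.92 ± 0.76 for P5 against adult (7.59-fold; adjusted p = 0.0277), a call lost with no filter on dim probes (adjusted p = 0.0531) and with no replicate block (0.0704). For P10 against adult it was 2.49 ± 0.76 (5.62-fold; adjusted p = 0.0904), with 2.63 and 2.35 in the replicates, and passed under median centring (2.54, adjusted p = 0.0345). P5 against P10 was 0.43 ± 0.76 (adjusted p = 0.668). Probe 2, dim in adults, gave 1.13 ± 0.37 at P5 (1.84 and 0.42; adjusted p = 0.0537) and 0.92 ± 0.37 at P10 (0.93 and 0.90; adjusted p = 0.171). It passed at P5 with processed signals (2.54, adjusted p = 0.0212), with median centring (1.29, 0.0188), with no dye term (1.24, 0.0451) and without the 2 arrays of faulty background (1.02, 0.0448).

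**Figure D2:**
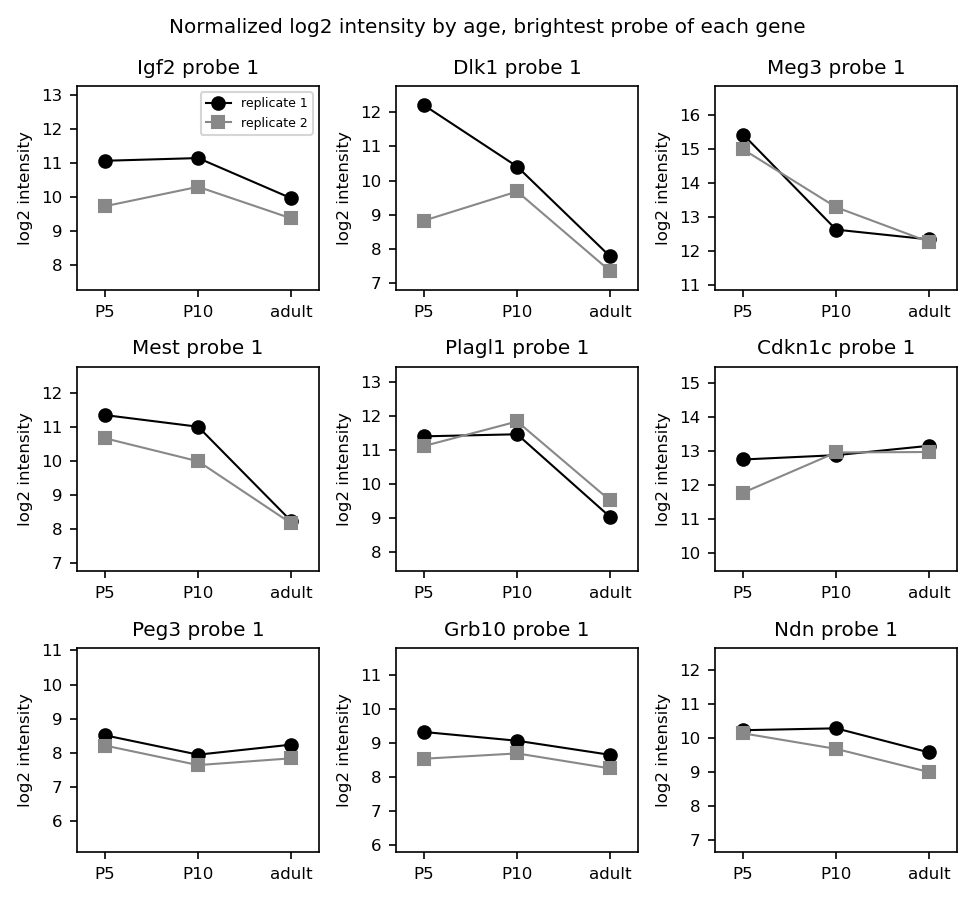
Normalized log2 intensity (vertical axis) at P5, P10 and in adults for the brightest probe of each of the 9 genes, black circles for replicate 1 and grey squares for replicate 2; each point averages the channels of that age on a slide, and levels of different probes are not comparable. Meg3 falls between P5 and P10 in both replicates, Mest is lowest in adults, and the 2 replicates of Dlk1 part at P5 (12.2 and 8.82).

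The Meg3 RNA, a long non-coding RNA transcribed next to Dlk1 from the other parental copy, was higher at P5 than at either later age. Its probe 1 gave 2.89 and 2.67 on the P5/adult arrays of replicates 1 and 2, and 2.82 and 1.68 on the P5/P10 arrays. On the P10/adult arrays it gave 0.20 and 0.98, and on the exchanged arrays -0.50 and -1.18. P5 stood above both other ages on every array, and P10 lay closer to adult than to P5. The fit gave 2.98 ± 0.27 for P5 against adult (7.89-fold; 3.15 and 2.81 in the replicates; adjusted p = 0.00158) and 2.3 ± 0.27 for P5 against P10 (4.93-fold; adjusted p = 0.00681). Its other probes gave 2.18 ± 0.21 (adjusted p = 0.00181) and 2.49 ± 0.10 (adjusted p = 0.000464) for P5 against adult, and 2.40 and 2.13 for P5 against P10 (adjusted p = 0.00442 and 0.00353). P10 against adult did not pass for any of them (0.68, -0.21 and 0.37; adjusted p = 0.164, 0.569 and 0.0711). The P5 to P10 calls were lost when the background model was fitted on every spot, those of faulty background included (adjusted p = 0.0694, 0.0604 and 0.0604); with that fit 33 probes of the whole array were called in P5 against P10.

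Markers of immature neurons were also highest at P5. Of 12 such genes, 11 were higher at P5 than in adults, 8 at P10, and 11 at P5 than at P10, with medians of 2.25, 0.89 and 1.21. Among all probes, 28%, 8.13% and 21.4% were higher in these comparisons. Under median centring the counts were 12, 6 and 8, with medians of 1.81, 0.95 and 0.85. The log2 of the summed intensities of these 12 genes was 16 and 15.9 at P5, 14.8 and 14.4 at P10, and 13.3 and 13.4 in adults. Of the 12, 10 were well above background in all 16 channels. Other markers were also higher at P5 than at P10. Of 8 erythroid markers 7 were higher and 0 lower (median 2.53), and of 11 mature neuron markers 6 and 0 (median 0.52). Median centring gave 8 and 0 for the erythroid (median 1.89) and 2 and 3 for the mature neuron markers (median -0.24). The part of any of these cells in the Meg3 result was not tested. In a bulk preparation fewer cells of a type and less RNA per cell cannot be told apart, which holds for every ratio given here.

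Other imprinted genes of the Dlk1 and Meg3 domain were picked after their values were known. Mirg, a non-coding RNA of the same strand as Meg3, was at 2.36 ± 0.16 for P5 against adult (adjusted p = 0.000886), 0.29 ± 0.16 for P10 against adult (adjusted p = 0.298) and 2.07 ± 0.16 for P5 against P10 (adjusted p = 0.00377). Dio3, which encodes a thyroid hormone-inactivating enzyme at the far end of the domain, was at -0.04 ± 0.11 for P5 against adult (adjusted p = 0.799). Begain, upstream of Dlk1, was higher at P5 (1.03 ± 0.14, adjusted p = 0.00446), a call lost under median centring (0.41, adjusted p = 0.122). Rtl1 and Rian were not tested.

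Mest, which encodes a membrane protein related to hydrolases and is expressed from the paternal copy, was higher at both young ages. Probe 1 gave 3.20 and 2.48 on the P5/adult arrays, 2.78 and 1.83 on the P10/adult arrays and -2.83 and -1.82 on the exchanged arrays. On the P5/P10 arrays it gave 0.42 and 0.70. No adult value reached either young age in either replicate. This probe is printed as 10 spots, of which 9 or 10 per array were used once outlier spots were left out. The SD of their background-subtracted log2 ratios within an array, before normalization, was 0.0209 to 0.110. The fit gave 2.86 ± 0.25 for P5 against adult (7.28-fold; 3.23 and 2.49; adjusted p = 0.00139) and 2.31 ± 0.25 for P10 against adult (4.95-fold; 2.80 and 1.82; adjusted p = 0.00687). Probes 2 and 3 gave 1.95 ± 0.19 and 1.98 ± 0.17 at P5 (adjusted p = 0.00183 and 0.00136), and 1.30 ± 0.19 and 0.82 ± 0.17 at P10 (adjusted p = 0.0144 and 0.0342). Between P5 and P10 the probes differed: probe 1 was at 0.55 ± 0.25 (adjusted p = 0.129), probe 2 at 0.64 ± 0.19 (0.0469) and probe 3 at 1.16 ± 0.17 (0.0102). With no replicate block, probes 2 and 3 did not pass at P10 (adjusted p = 0.0593 and 0.101) and probe 2 not in P5 against P10 (0.13). The probe 2 call in P5 against P10 was lost under 6 further alternatives and the probe 3 call at P10 under 3.

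Plagl1, a zinc finger transcription factor that is known in the mouse to raise expression of other imprinted genes, including Igf2, was measured by probes that disagree. Probe 1 gave 2.44 and 1.64 on the P5/adult arrays, 2.43 and 2.31 on the P10/adult arrays and -2.17 and -2.18 on the exchanged arrays. On the P5/P10 arrays it gave 0.22 and -0.64. Both young ages stood above adult in both replicates, with no common direction between P5 and P10. The fitted ratio of probe 1 was 1.95 ± 0.22 at P5 (3.87-fold; adjusted p = 0.00263) and 2.27 ± 0.22 at P10 (4.81-fold; adjusted p = 0.00532), and probe 2 was within 0.1 of these values. P5 against P10 was -0.31 ± 0.22 at probe 1 (adjusted p = 0.289) and -0.26 at probe 2 (adjusted p = 0.377), and both passed as lower under median centring (-0.89 and -0.81; adjusted p = 0.0151 and 0.018). Probes 3 and 4, by contrast, gave 0.52 ± 0.19 and 0.23 ± 0.11 at P5 (adjusted p = 0.0667 and 0.144). At P10 they gave 0.06 and 0.10 (adjusted p = 0.875 and 0.611). Both were dimmer, with mean log2 intensities of 7.80 and 6.90 against 10.7 and 10.4 for probes 1 and 2. The part of this in the disagreement was not tested. The sign of probe 3 at P10 turned without the 2 arrays of faulty background (-0.06). Which transcripts the 4 probes target was not analysed here.

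Peg3, a large zinc finger protein expressed from the paternal copy, passed the test only at probe 1 in P5 against P10. Probe 1 gave -0.02 and 0.62 on the P5/adult arrays and 0.72 and 0.50 on the P5/P10 arrays. The P10/adult arrays gave -0.43 and -0.11 and the exchanged arrays -0.06 and 0.51, so the exchanged pair of replicate 1 disagreed in direction. P5 stood above P10 in both replicates on the direct arrays, while the P5/adult arrays had opposite signs. Fitted with the dye term, the P5 to adult ratio was positive in both replicates (0.45 and 0.25). The fit gave 0.61 ± 0.11 for P5 against P10 (1.52-fold; adjusted p = 0.0163), 0.35 ± 0.11 for P5 against adult (adjusted p = 0.0519, and 0.33 with adjusted p = 0.0499 with no dye term) and -0.26 ± 0.11 for P10 against adult (adjusted p = 0.193). The P5 to P10 call was lost with no replicate block (0.57, adjusted p = 0.0992), under median centring (0.0598), without the 2 arrays of faulty background (0.0956) and with the background model fitted on every spot (0.152). Probe 2, dimmer at a mean log2 intensity of 7.18 against 8.01, did not pass in any comparison and lay between -0.05 and 0.16. Of the neighbours of Peg3 in its domain, picked in the same way, Usp29 was at 0.60 ± 0.14 for P5 against adult (adjusted p = 0.0204) and 0.64 ± 0.14 for P5 against P10 (adjusted p = 0.0228), both lost under median centring (0.29 and 0.33; adjusted p = 0.351 and 0.298). Zim1 was at 0.31 ± 0.10 (adjusted p = 0.0485) and 0.34 ± 0.10 (adjusted p = 0.0475).

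Cdkn1c encodes p57, an inhibitor of cyclin-dependent kinases that holds cells out of division. It was the only listed gene with a negative fitted ratio to adult at P5. The P5/adult arrays gave -0.56 and -1.13, the P10/adult arrays -0.50 and -0.04, the exchanged arrays 0.11 and 0.04, and the P5/P10 arrays -0.30 and -1.24. P5 was thus the lowest age on each array that held it, by little in replicate 1 and by more in replicate 2. The fit gave -0.78 ± 0.27 for P5 against adult (-0.39 and -1.18; adjusted p = 0.0588), -0.15 ± 0.27 for P10 against adult (-0.30 and -0.01; adjusted p = 0.771) and -0.63 ± 0.27 for P5 against P10 (-0.09 and -1.17; adjusted p = 0.116). Under median centring it passed as lower at P5 against both adult (-1.45, adjusted p = 0.00145) and P10 (-1.39, adjusted p = 0.00442), and so it did with no dye term (-0.88 and -0.73; adjusted p = 0.0231 and 0.0487). Relative to the median of all probes, the P5 to adult ratio was -0.85 with loess and -1.37 with median centring.

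Other imprinted genes of the Cdkn1c domain were picked after their values were known. Kcnq1ot1, the non-coding RNA read from the paternal copy of the Cdkn1c domain, was higher at P5 than at P10 (1.97 ± 0.36, adjusted p = 0.0161) and than in adults (1.77 ± 0.36, adjusted p = 0.0137). Its second probe gave 1.44 in the former comparison. Slc22a18 and Kcnq1 of the same domain were lower at P5 than in adults, at -1.06 ± 0.10 (adjusted p = 0.00181) and -1.21 ± 0.16 (adjusted p = 0.00419). Tssc4 was higher (0.54 ± 0.10, adjusted p = 0.0114), a call lost under median centring, where its sign turned (-0.06, adjusted p = 0.819). Cd81 (-0.60 ± 0.20, adjusted p = 0.0523) and Ascl2 (-0.13 ± 0.12, adjusted p = 0.374) did not pass, though Cd81 did under median centring (-1.24, adjusted p = 0.0278), and Phlda2 was not tested. Kcnq1ot1 runs antisense within Kcnq1, and the strand of the probes was not checked here.

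Ndn encodes necdin, a MAGE family protein that restrains cell division and is abundant in neurons, and is expressed from the paternal copy. The P5/adult arrays gave 0.58 and 1.12, the P10/adult arrays 0.54 and 0.68 and the exchanged arrays -0.74 and -0.75. On the P5/P10 arrays the values were -0.04 and 0.47. Adult was the lowest age in both replicates. The direct P5/P10 arrays differed in sign, whereas the fitted P5 to P10 ratio was positive in both replicates (0.05 and 0.48). The fit gave 0.93 ± 0.15 for P5 against adult (1.91-fold; 0.69 and 1.18; adjusted p = 0.0071) and 0.67 ± 0.15 for P10 against adult (1.59-fold; 0.64 and 0.70; adjusted p = 0.0436). P5 against P10 was 0.26 ± 0.15 (adjusted p = 0.214), a sign that turned under median centring (-0.23). The P5 call was lost under median centring (0.46, adjusted p = 0.197) and with the background model fitted on every spot (0.66, adjusted p = 0.0767). The P10 call was lost under 6 alternatives, among them the fit with no replicate block (adjusted p = 0.209).

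Of the genes in the same domain as Ndn, picked in the same way, Magel2, which encodes another MAGE family protein, was higher at P5 than in adults (2.73 ± 0.09, adjusted p = 0.000464), at P10 than in adults (1.0 ± 0.09, adjusted p = 0.00522) and at P5 than at P10 (1.73 ± 0.09, adjusted p = 0.00353). Mkrn3 was at 0.77 ± 0.12 and 0.55 ± 0.12 for P5 and P10 against adult (adjusted p = 0.00647 and 0.0414), and Peg12 at 0.74 ± 0.11 and 1.04 ± 0.11 (adjusted p = 0.00556 and 0.0067). The P10 call of Mkrn3 was lost under median centring (adjusted p = 0.159). Snrpn (0.10 ± 0.11, adjusted p = 0.496) and Ube3a (-0.36 ± 0.13, adjusted p = 0.0662) did not pass at P5.

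**Figure D3:**
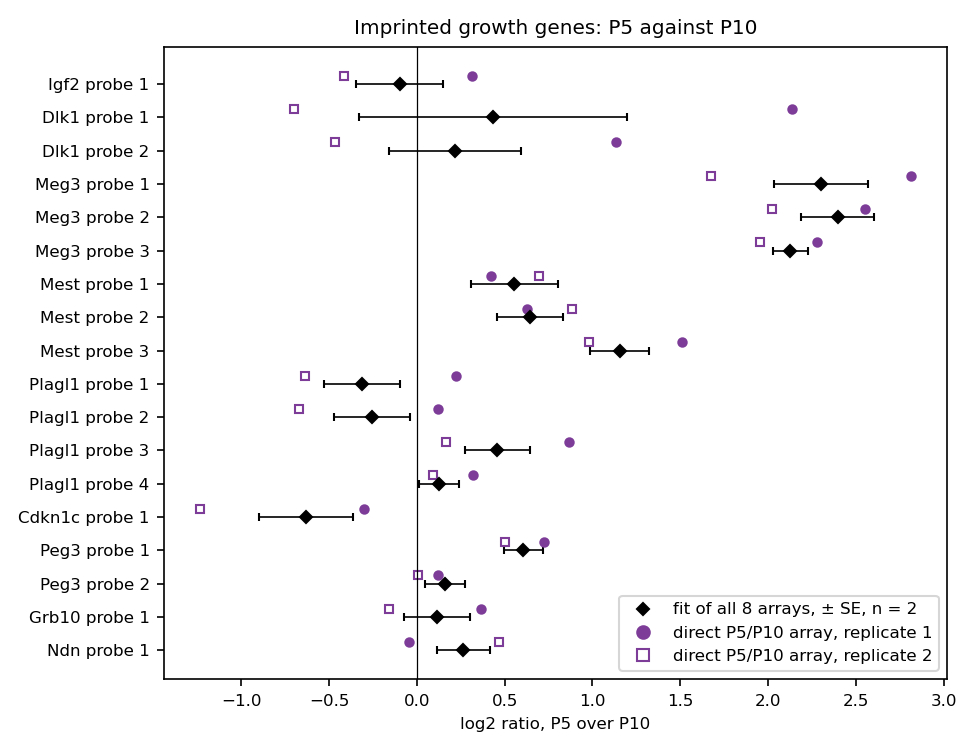
Log2 ratio of P5 over P10 (horizontal axis) of the 18 probes; black diamonds with bars are the fit of all 8 arrays ± SE (n = 2), and purple circles and open squares are the direct P5/P10 arrays of replicates 1 and 2. The 3 Meg3 probes lie near 2 in both replicates, and both direct values of Cdkn1c lie below 0. The direct values of Dlk1, Igf2, Plagl1 probes 1 and 2, Grb10 and Ndn lie on both sides of 0.

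The genes were grouped by the parental copy expressed in most tissues, which may not hold for each gene in the cells sampled here. Of the 6 genes grouped as paternally expressed, 5 had a probe higher at P5 than in adults, and 3 at P10. Among all probes, 28% and 8.13% were higher. Peg3 was the exception at P5. Under median centring the counts were 3 of 6 at P5 and 4 of 6 at P10, so their order turned. Of the maternally expressed genes with a probe, Meg3 was higher at P5 with either scaling, and Cdkn1c did not pass with loess but did under median centring, as lower. The groups are too small for more than this count.

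The 2 replicates differed at P5 for several of the genes. Replicate 1 exceeded replicate 2 at P5, as a log2 ratio to adult, for 16 of the 18 probes, against 56.8% of all probes; at P10 it did so for 7 of 18, against 53.3%. The difference was 3.07 for Dlk1 probe 1, a size passed by 0.111% of all probes, 1.42 for Dlk1 probe 2 (0.719%) and 1.0 for Igf2 (2.16%). It was 0.80 for Cdkn1c, 0.78 for Plagl1 probe 1 and 0.74 for Mest probe 1. Meg3 probe 3 differed by 0.07, and Ndn went the other way at -0.49. At P10 the widest gaps were those of Mest probe 1 at 0.98 (1.51%) and Meg3 probe 1 at -0.77. In the same libraries, the median of the choroid plexus and ependyma markers was 1.11 in replicate 1 and 0.87 in replicate 2 at P5, that of the fibroblast and meningeal markers 0.24 and 0.06, that of the immature neuron markers 2.24 and 2.17, that of the microglia and macrophage markers 0.18 and 1.14, and that of the erythroid markers 4.41 and 5.19. The part of these cell types in the gaps was not tested.

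Of 24 tested genes of IGF and insulin signalling (26 listed), 7 were higher at P5 than in adults and 7 lower, near the shares of 28% and 24% among all probes. The median of 0.13 turned to -0.16 under median centring, with 5 higher and 10 lower. Grb14, a relative of Grb10 that inhibits the insulin receptor, was at -1.99 ± 0.11, the receptor gene Igf1r at -1.80 ± 0.09 and the vascular binding protein gene Igfbp7 at -1.67 ± 0.11, whereas Igfbp4 was at 1.56 ± 0.14 (adjusted p from 0.000559 to 0.0015). At P10, 8 were higher and 2 lower (median 0.24), against 8.13% and 9.04% of all probes, and median centring left 3 higher and 2 lower. The binding protein genes Igfbp1 (2.12 ± 0.10), Igfbp4 (2.03 ± 0.14) and Igfbp3 (1.66 ± 0.10) were higher, and Igf1r was lower (-1.48 ± 0.09). In P5 against P10, 1 was higher and 10 were lower (median -0.16), against 21.4% and 18.7% of all probes; median centring gave 1 and 11 (median -0.57). The lowest were Igfbp3 at -1.77 ± 0.10, Igfbp1 at -1.67 ± 0.10, Igfbp7 at -1.54 ± 0.11 and the protease gene Htra1 at -1.13 ± 0.15. Of the direct partners of Igf2, picked in the same way, the clearance receptor gene Igf2r, itself imprinted, was at 0.64 ± 0.11 at P5 and 0.68 ± 0.11 at P10 (adjusted p = 0.00765 and 0.0175), calls that median centring ended (adjusted p = 0.692 and 0.13). Igf1, the other ligand, did not pass at P5 (0.12 ± 0.15, adjusted p = 0.534) or P10 (0.51 ± 0.15, adjusted p = 0.0791).

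Cell cycle genes, which include the kinases that Cdkn1c inhibits, were more often higher than lower in the young samples against adult. Of 18 tested cyclins, kinases and inhibitors (20 listed), 9 were higher and 4 lower at P5 (median 0.51), against 28% and 24% of all probes. At P10, 12 were higher and 3 lower (median 0.85), against 8.13% and 9.04%, and in P5 against P10 none were higher and 8 lower (median -0.39), against 21.4% and 18.7%. Under median centring the counts were 7 and 4 (median 0.27), 7 and 1 (median 0.91), and 0 and 11 (median -0.73). The proliferation marker Mki67 was at 4.80 ± 0.11 at P5 and 4.52 ± 0.11 at P10. The mitotic cyclin genes Ccna2 and Ccnb1 were at 2.86 ± 0.12 and 2.84 ± 0.10 at P5, with another Ccnb1 probe at 0.45, and at 3.23 ± 0.12 and 3.28 ± 0.10 at P10. The inhibitor genes of the Cdkn1c family, Cdkn1a (-1.75 ± 0.15, adjusted p = 0.00133) and Cdkn1b (-0.64 ± 0.11, adjusted p = 0.00881), were lower at P5; both were picked after their values were known.

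Of 38 tested imprinted genes outside the list (47 listed), 16 were higher at P5 than in adults and 10 lower (median 0.08), where 28% and 24% of all probes were. At P10 the counts were 7 higher and 8 lower (median -0.01), against 8.13% and 9.04%, and in P5 against P10 they were 11 higher and 4 lower (median 0.09), against 21.4% and 18.7%. Under median centring the 3 pairs of counts were 10 and 14, 2 and 5, and 6 and 9. Nnat, a paternally expressed gene of immature neurons, was at 1.82 ± 0.10 at P5 (adjusted p = 0.000593). Ddc, the enzyme that makes dopamine and serotonin, was lower at P5 (-2.13 ± 0.19) and at P10 (-2.02 ± 0.19; adjusted p = 0.00148 and 0.00515). At P10, Peg13 (-1.31 ± 0.10), Zrsr1 (-1.13 ± 0.10) and Ppp1r9a (-1.10 ± 0.15) were lower as well, the last not under median centring (adjusted p = 0.085). Airn, the non-coding RNA of the Igf2r domain, was at 1.39 ± 0.33 in P5 against P10 (adjusted p = 0.0269), and its other probe at -0.10.

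Vessel and non-vessel markers moved with the same ages. All 14 endothelial markers were lower at P5 than in adults (median -1.70) and 7 at P10 (median -0.46). Of 11 tested pericyte and smooth muscle markers, 10 were lower at P5 (median -1.60) and 3 at P10 (median -0.37). Median centring left 10 lower at P5 and 1 at P10. Of 12 tested fibroblast and meningeal markers, 4 were higher and 3 lower at P5, near the shares of all probes (median 0.10, and -0.40 under median centring). At P10, 5 of these markers were higher and 1 lower (median 0.55). The log2 of their summed intensities was 17.4 and 16.9 at P5, 17.6 and 17.5 at P10, and 17.1 and 16.7 in adults. Of 10 choroid plexus and ependyma markers, 6 were higher and 1 lower at P5 (median 1.03), but 2 and 2 under median centring (median 0.56), and 3 higher and 1 lower at P10 (median 0.43, with 0.99 and 0.05 in the replicates). The log2 of their summed intensities was 18.0 and 17.5 at P5, 17.5 and 16.8 at P10, and 16.1 and 16.9 in adults. All 8 erythroid markers tested were higher at P5 (median 4.86) and 6 at P10 (median 2.19). The log2 of their summed intensities was 21.1 and 20.9 at P5, 18.9 and 19.2 at P10, and 17.2 and 17.0 in adults. Oligodendrocyte markers were higher in 3 and lower in 6 of 11 at P5 (median -1.14). Mature neuron markers were lower in 6 of 11 at P5 (median -0.53). Astrocyte markers were higher in 2 and lower in 4 of 9 (median -0.63), and microglia and macrophage markers higher in 3 of 8 (median 0.71). Under median centring, the counts higher and lower at P5 were 2 and 7 for oligodendrocyte and 0 and 6 for mature neuron markers. They were 1 and 6 for astrocyte and 2 and 0 for microglia and macrophage markers. The part of these cells in the ratios of the imprinted genes was not tested.

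**Figure D4:**
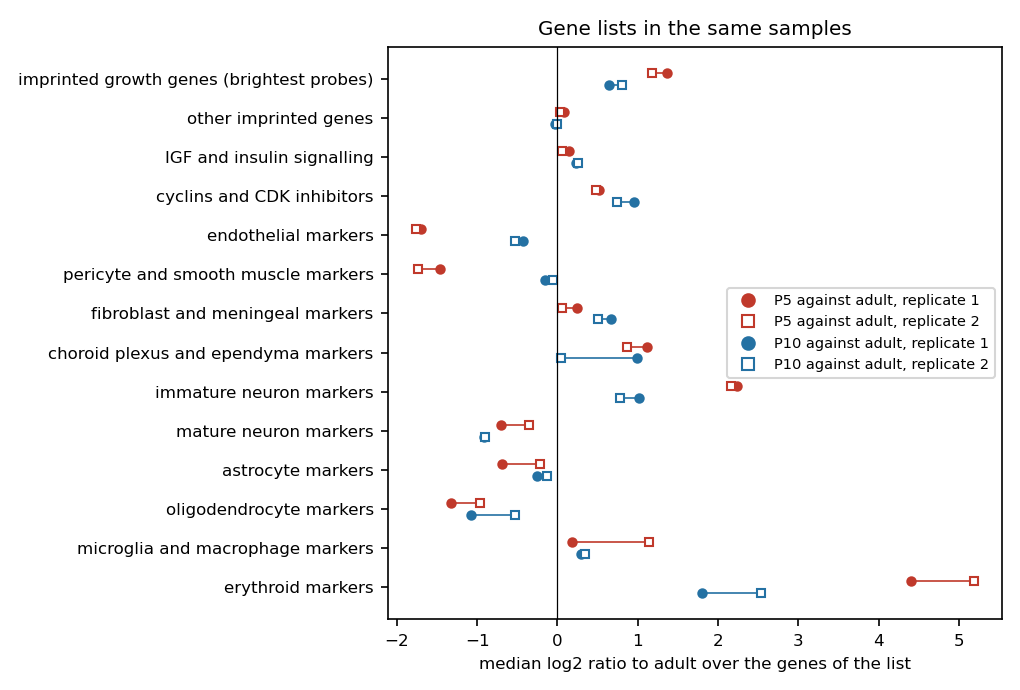
Median log2 ratio to adult (horizontal axis) over the tested genes of each list, at the brightest probe of a gene; red marks P5 against adult, blue P10 against adult, filled circles replicate 1 and open squares replicate 2. The imprinted growth genes lie right of 0 at both ages, and the other imprinted and IGF lists near 0. The endothelial list lies left of 0 and the erythroid list farthest right (4.41 and 5.19 in replicates 1 and 2 at P5).

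The genes nearest in pattern were sought over the P5 and P10 log2 ratios to adult in both replicates, 4 values per gene, among 15605 genes, by root-mean-square distance. Nearest to Meg3 were Gm3002 (0.225), Gm3317 (0.274) and Islr2 (0.353). Plagl1 probe 1 had Cenpk (0.167), Timp1 (0.223) and Kifc1 (0.235), and Mest probe 1 had Mdfi (0.349), Wfikkn2 (0.362) and Mfap2 (0.365). Around Igf2 lay Nr5a2 (0.150), Slc13a4 (0.194) and Nrp2 (0.199), and around Cdkn1c lay Cpd (0.170), Actn4 (0.172) and Ptprm (0.178). To Dlk1, Mmrn1 (0.784), Mest (0.871) and Flnc (0.963) came closest. Within 0.2 of Peg3, Grb10 and Ndn lay 600, 152 and 76 genes. The nearest were Clip4, Efnb1 and Gm3086 to Peg3, Cep192, Nup155 and Plscr3 to Grb10, and Rps2, Art4 and Rasa3 to Ndn.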

How the data were processed

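The deposited files are 8 Agilent Feature Extraction outputs, 1 per array with 44397 spots; the version is 10.5.1.1 per the file headers and 12.6 per the submitters' processing notes. Per the file headers, the median spot, local background and processed signals deposited by the authors are linear intensity values. The authors' deposited log ratio is a log10 of Cy5 over Cy3 and enters no result given here. Ages and dyes were taken from the labels.

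Median signals were background-corrected in R 4.3.3 with limma 3.58.1 (normexp, offset 50) and loess-normalized within each array (span 0.3). On 2 arrays, 11 spots had a recorded background that exceeded their signal by more than 100; they were corrected with the median background of their array, then left out. Outlier spots were left out and spots of 1 probe averaged. Of 39429 probes, 27427 matched a symbol in the RefSeq table (GRCm38.p6, the source of names and promoter windows) and 12002 did not. The probe design is of build mm9, so no probe coordinates are given. Of 27206 probes well above background in all channels of at least 1 age, 81 lacked spots for the fit and 27125 were tested.

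For each slide the 4 ratios gave P5 and P10 differences from adult by least squares with a dye term. limma then fitted age and replicate (2 residual and 3.04 prior degrees of freedom), with Benjamini-Hochberg adjustment over all tested probes and a threshold of 0.05. Replicate, slide and scan coincide, and every slide holds all ages. The scripts were tested on simulated data. A list's gene is represented by its brightest tested probe, with the p-value of the fit over all probes. The listed genes, gene lists, named genes (every probe of the listed genes, up to 4 called genes of each other list with the largest ratios, and the 3 nearest patterns) and tests were chosen with earlier results of these data known. Outside that rule, neighbours in the domains of Dlk1, Peg3, Cdkn1c and Ndn, and Igf2r, Igf1, Cdkn1a and Cdkn1b, were picked after their values were seen. The number of arrays limits the precision. Alternatives were processed signals, no background correction, the background model on every spot, median centring, other probe filters, 1 probe per gene, no dye term, leaving out the 2 arrays, no replicate block, and each replicate alone.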

Additional observations from a re-analysis of the deposited data

How the results depend on the processing

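Of 510 values of single probes under the 10 alternatives that allow a test, 452 kept their direction and side of the threshold. Another 35 no longer passed, 17 newly passed and 6 changed sign. The other probe filters and 1 probe per gene leave the ratios as they are, so under these no sign could change. The 6 were Grb10 in P5 against P10 with processed signals (-0.041) and median centring (-0.20), Ndn in P5 against P10 with median centring (-0.23), Peg3 probe 2 in P5 against adult with no dye term (-0.019) and no replicate block (-0.014), and Plagl1 probe 3 in P10 against adult without the 2 arrays of faulty background (-0.060). None of these 6 had passed the test, and the cause was not tested. With the background model fitted on every spot, 6410, 270 and 33 of all probes were called in P5 against adult, P10 against adult and P5 against P10, in place of 14111, 4657 and 10870, and 0 of the 18 listed probes passed in P5 against P10. Median centring left 1471 probes called in P10 against adult. Without the 2 arrays, 2252 and 6708 were called in P10 against adult and P5 against P10. With no replicate block, 2039 and 6280 were called there, and 3 listed probes in P10 against adult in place of 6; beside these and the losses given with each gene it changed no other call of a listed probe. Processed signals gave a median of 2.05 over the listed probes in P5 against adult. With 1 probe per gene, 6, 3 and 2 of 9 genes passed in the 3 comparisons. The median in P5 against adult was then 0.93, since a gene with several probes counts 1 time. Each replicate alone leaves no residual degrees of freedom and hence no test; the median of the listed probes then ranged from 1.28 to 1.99 in P5 against adult, 0.54 to 0.75 in P10 against adult and 0.08 to 0.52 in P5 against P10.

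The standard errors of the listed probes ran from 0.102 to 0.762, against a median of 0.117 over all probes. The dye term was -0.36 to 0.14 on slide 1 and -0.10 to 0.20 on slide 2. The P5/adult ratio less the P5/P10 and the dye-averaged P10/adult ratio, 0 where the arrays close, was -0.68 to 0.18 on slide 1, lowest for Igf2, and -0.28 to 0.44 on slide 2, highest for Peg3 probe 1. Dlk1 probe 2 is near background in adults, which limits its ratios. Plagl1 probes 3 and 4 and Peg3 probe 2 were also dim. Their mean log2 intensity was 7.80, 6.90 and 7.18, against 7.04 for Dlk1 probe 2.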
